A study of Homo sapiens with 18 samples.

Results

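B11, a clone of the leukaemia line THP1 that carries a doxycycline-inducible NRAS, was compared with its parent at the highest doxycycline dose of the study. The comparison took 6 of the 18 libraries, 3 of B11 and 3 of THP1, each made from 1 plate kept for 5 days in 10 ug/ml doxycycline. Of the 60658 gene IDs in the deposited table, the 17555 with at least 1 FPKM (depth-scaled fragments per kilobase of transcript) in at least 3 of the 18 libraries were tested. THP1 cells come from a human acute monocytic leukaemia and are labelled as heterozygous for NRAS G12D. Per the labels, B11 descends from THP1 cells that received, by lentivirus, a doxycycline-inducible, CRISPR-resistant NRAS with the G12V change, together with GFP. After cells with GFP had been selected, a second vector brought Cas9, puromycin resistance and dual guide RNAs against sequences on either side of the NRAS start codon. B11 is 1 puromycin-selected subclone and is labelled as heterozygous for NRAS G12V. No vector is named for the THP1 plates, so the clone, its vectors, the edit and the NRAS allele cannot be told apart as sources of a difference. The plates of each line were split from 1 culture, and p-values therefore measure only the spread between plates. The other 12 libraries, 3 of each line at 0 and at 1 ug/ml, were used to ask which differences between clone and parent varied with dose. Values of B11 and THP1 are at 10 ug/ml unless another dose is named.

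NRAS is a small GTPase that activates the kinases RAF, MEK and ERK when bound to GTP, and the mutations named here keep it in that state. ERK induces immediate early transcription factors and also its own brakes, such as the DUSP phosphatases and Sprouty proteins. In monocytic leukaemia cells the same cascade is known for its effects on growth and on the expression of monocyte genes. Doxycycline also inhibits translation on mitochondrial ribosomes, and both lines received the same dose.

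Libraries of the same group had correlations of 0.938 to 0.957 (Pearson, across genes), and an estimated 11.7 to 14.6 M fragments lay behind each of the 6 libraries at 10 ug/ml. Both lines expressed genes of myeloid cells at this dose, although 24 of 38 tested monocyte genes were called lower in B11. SPI1, the transcription factor PU.1, was at 302, 282 and 282 FPKM in B11, against 217, 198 and 212 FPKM in THP1, and FCER1G, an Fc receptor subunit, was at 871, 897 and 765 FPKM in B11, against 699, 746 and 636 FPKM in THP1. Other markers chosen for this identity went the other way, as given below. CD14, CSF1R, LYZ and AZU1 were lower in B11, with CD14 near 1 FPKM there. MPO and ITGAM were not called, and CD33 was higher. Of the marker lists of other cell types, 13 of 18 erythroid and megakaryocyte genes, 12 of 19 lymphoid genes and 13 of 18 epithelial and fibroblast genes were below 1 FPKM in all 6 libraries. The summed lymphoid level was 272 to 293 FPKM in B11 and 92.1 to 98.5 FPKM in THP1, and NCAM1 was the only member called higher in B11.

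NRAS itself (chromosome 1, 114704469 to 114716894, minus strand of GRCh38) was at 27.99, 27.7 and 28.2 FPKM in B11, against 23.7, 24.5 and 24.6 FPKM in THP1. All 3 B11 libraries were above all 3 THP1 libraries, by a small margin. The difference of the mean log2(FPKM + 1), B11 minus THP1, was 0.20 (SE 0.07, adjusted p = 0.042) in limma. The call was lost in TPM (log2 difference 0.13, adjusted p = 0.27) and when any of the 6 libraries was left out (0.18 to 0.21, adjusted p = 0.07 to 0.115). NRAS was not called between the lines at 0 ug/ml (-0.15, adjusted p = 0.099 in limma) or at 1 ug/ml (0.03, adjusted p = 0.83). Its difference at 10 minus that at 0 ug/ml was 0.35 (SE 0.10, adjusted p = 0.016 in limma). B11 averaged 20.9, 23.8 and 28.0 FPKM at 0, 1 and 10 ug/ml, and THP1 23.3, 23.4 and 24.2 FPKM. The table gives 1 value per gene, so the transgene and the edited locus cannot be told apart.

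Across all 17555 genes, 5691 were called at an adjusted p under 0.05 in limma, 32.4% of those tested. Of these, 2882 (16.4% of those tested) were higher in B11 and 2809 (16%) were lower, and 823 and 814 of them differed at least 2-fold on the log2(FPKM + 1) scale. In 22.1% of genes all 3 B11 libraries lay above all 3 THP1 libraries, and in 22.4% all lay below. The median log2 difference of all genes was -0.02. These shares are the background for the gene groups that follow. A difference is always of mean log2(FPKM + 1), B11 minus THP1.

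Genes called higher in B11 were concentrated on chromosomes 5, 6, 10 and 17. The median log2 difference was 0.59 over the 606 tested genes of chromosome 10, 0.39 over the 1139 of chromosome 17, 0.30 over the 759 of chromosome 5 and 0.24 over the 890 of chromosome 6, and it lay between -0.19 and -0.01 on every other chromosome. On chromosome 10, 49.7% of genes were called higher and 2.1% lower, and on chromosome 17, 40.1% higher and 3.7% lower. Chromosomes 5, 6, 10 and 17 hold 19.3% of the tested genes, and they held 45.8% of the genes called higher (1320) and 6.73% of those called lower (189).

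Medians of the same sign were found at the other doses. On chromosome 10 the median difference between clone and parent was 0.63 at 0 ug/ml, 0.65 at 1 ug/ml and 0.59 at 10 ug/ml, and on chromosome 17 it was 0.55, 0.46 and 0.39 at the same doses. All 28 windows of 10 Mb with a median above 0.3, out of 264 windows with at least 20 tested genes, lay on these 4 chromosomes. On chromosome 6 the medians were 0.60, 0.57 and 0.42 in the first 3 windows and 0.51 in the window from 160 to 170 Mb, and 0.27 or less in the others. All 11 windows with a median below -0.3 lay elsewhere, and the lowest, at -0.63 over 39 genes, was the window from 20 to 30 Mb of chromosome 12. Its median was -0.70 at 0 ug/ml and -0.50 at 1 ug/ml. The 4 chromosomes were picked from these data by a median above 0.2, so no test is given, and DNA content was not measured. Counts of gene groups are therefore also given without them where the number higher or lower moves by more than 1.5 times. Over the 13925 genes on the other chromosomes, X included, 11.2% were called higher and 18.6% lower.

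**Figure D1:**
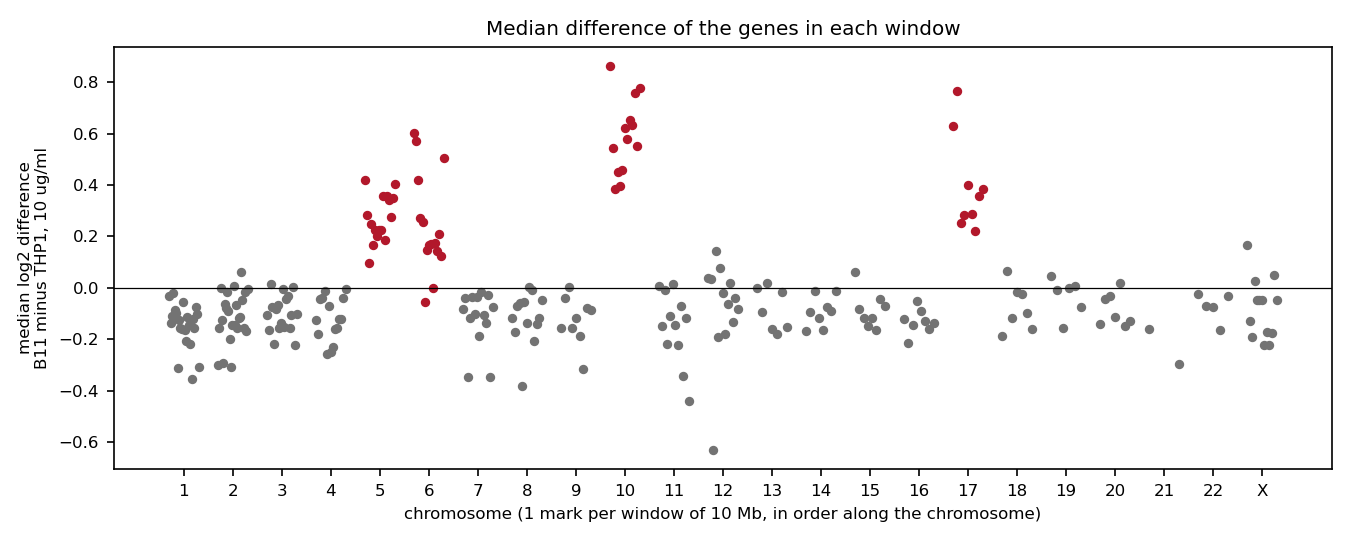
Median log2 difference (B11 minus THP1 at 10 ug/ml) of the tested genes in each window of 10 Mb, by chromosome, with 1 mark per window and chromosomes 5, 6, 10 and 17 in red. The red marks reach 0.86, and all 28 windows above 0.3 are red, while the lowest window, at -0.63, lies on chromosome 12.

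Genes that ERK signalling is known to induce were mostly higher in B11. Of 22 tested genes of ERK output and feedback, 12 were called higher and 2 lower, with a median log2 difference of 0.67 (8 higher and 2 lower of 17 outside chromosomes 5, 6, 10 and 17, a median of 0.46). EGR1, an immediate early transcription factor (chromosome 5, 138465490 to 138469315, plus strand), was at 52.7, 46.2 and 48.1 FPKM in B11, against 2.61, 4.05 and 3.21 FPKM in THP1. No B11 library overlapped a THP1 library, and the log2 difference was 3.55 (SE 0.12, adjusted p = 2.3e-11). The receptor tyrosine kinase EPHA2 was at 3.95, 4.25 and 4.91 FPKM in B11, against 0.350, 0.668 and 0.342 FPKM in THP1, a difference of 1.89 (SE 0.20, adjusted p = 4.4e-06), and the ETS factor ETV4 was higher by 1.68 (log2). The AP-1 subunits FOS and JUNB were higher by 0.64 and 0.81 (log2), cyclin D1 (CCND1) by 1.13, and HBEGF, a ligand of the EGF receptor, by 1.00.

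Members of the same group went the other way. DUSP6, the phosphatase that inactivates ERK in the cytoplasm, was at 24.5, 18.3 and 20.1 FPKM in B11, against 43.5, 32.01 and 43.3 FPKM in THP1. All B11 libraries were below all THP1 libraries, and the log2 difference was -0.88 (SE 0.14, adjusted p = 0.00017). MYC was lower by a log2 difference of -0.46 (SE 0.06, adjusted p = 2e-05). The Sprouty genes SPRY2 and SPRY4 and the adaptor SPRED2, all inhibitors of the cascade, were not called, with differences of -0.18, -0.02 and 0.03. Among 30 genes that encode components between RAS and ERK, 9 were called higher and 3 lower. MAP2K1, which encodes MEK1, was higher by 0.75 (log2) and RRAS by 1.15, while the exchange factor SOS1 was lower, at a log2 difference of -1.01. RASA4 was higher by 1.63 (log2), but it has a near-identical copy, RASA4B, and how reads were divided between the copies is uncertain.

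The stretch of RefSeq sequence from 250 bases before to 50 bases after the start of EGR1 is shown because EGR1 had the largest difference of the ERK group. Capitals mark the core of the serum response element, spelled here as CCATAT, then any pair of bases, then GG, which was searched on both strands and is held by 127 of 34943 such promoters (0.363%). EGR1 holds 2 matches. The build is GRCh38.p14, and a match describes these letters, not a bound site.
EGR1, chr5:138465229-138465528, plus strand: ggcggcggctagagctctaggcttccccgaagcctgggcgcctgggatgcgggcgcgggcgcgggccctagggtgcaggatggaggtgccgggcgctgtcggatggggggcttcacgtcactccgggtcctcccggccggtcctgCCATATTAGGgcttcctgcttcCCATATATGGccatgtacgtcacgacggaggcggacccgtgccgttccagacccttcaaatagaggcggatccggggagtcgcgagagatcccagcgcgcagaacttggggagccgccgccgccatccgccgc

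Monocyte genes were broadly lower in B11. Of 38 tested monocyte and macrophage genes, 24 were called lower and 4 higher, with a median log2 difference of -0.76 (3 higher and 21 lower of 34 outside chromosomes 5, 6, 10 and 17). S100A8 (chromosome 1, 153390032 to 153391188, minus strand), a subunit of the calcium-binding inflammatory protein calprotectin, was at 1.94, 3.30 and 3.08 FPKM in B11, against 285, 311 and 262 FPKM in THP1. Its partner subunit S100A9 was at 5.84, 9.68 and 10.6 FPKM in B11, against 614, 605 and 600.3 FPKM in THP1. The libraries of the lines were far apart for both, with log2 differences of -6.26 (SE 0.19, adjusted p = 1.2e-11) for S100A8 and -6.00 (SE 0.17, adjusted p = 5.1e-12) for S100A9. The neighbouring S100A12 was lower, at a log2 difference of -3.76.

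Receptors of monocytes followed. CD14, the co-receptor for lipopolysaccharide, was at 0.868, 1.30 and 0.764 FPKM in B11, against 7.58, 8.64 and 5.75 FPKM in THP1, a log2 difference of -2.07 (SE 0.15, adjusted p = 1.3e-07). The scavenger receptor CD36 was at 0.735, 0.879 and 0.499 FPKM in B11, against 16.5, 19.2 and 17.1 FPKM in THP1, a difference of -3.45 (SE 0.20, adjusted p = 8.8e-09), and reads of the opposite-strand gene GNAT3 may be included. B11 libraries were below THP1 libraries for both genes. The chemokine receptors CCR2 and CX3CR1 were lower, at log2 differences of -2.83 and -2.05, the lipopolysaccharide receptor TLR4 at -1.67, and CYBB, the catalytic subunit of the phagocyte NADPH oxidase, at -2.58. LYZ, which encodes lysozyme, was at 271, 282 and 327 FPKM in B11, against 669.9, 738 and 570.5 FPKM in THP1, a difference of -1.16 (SE 0.11, adjusted p = 2.2e-06). The 4 members called higher were CD68 at 1.15, NCF1 at 1.03, CD33 at 0.37 and FCER1G at 0.28, and NCF1 has near-identical pseudogenes among which its reads may be split. The integrin subunit ITGAM was not called, with 11.3 FPKM in B11 and 12.7 in THP1 on average (adjusted p = 0.6).

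None of 20 tested myeloid growth factor and cytokine receptors was called higher, and 11 were called lower, with a median log2 difference of -0.45. CSF1R, the M-CSF receptor of macrophages, was at 16.4, 13.6 and 12.4 FPKM in B11, against 48.7, 51.6 and 51.2 FPKM in THP1, a difference of -1.78 (SE 0.10, adjusted p = 8.6e-09). KIT, the stem cell factor receptor, was at 0.210, 0.0450 and 0.0455 FPKM in B11, against 5.39, 6.60 and 6.46 FPKM in THP1, a difference of -2.70 (SE 0.22, adjusted p = 2.7e-07). FLT3 was lower, at a log2 difference of -0.69, the interleukin-6 receptor IL6R at -1.23 and the interleukin-3 receptor chain IL3RA at -0.59. The shared signalling chain CSF2RB was lower, at a log2 difference of -0.53, while CSF2RA was not called (log2 difference 0.24, adjusted p = 0.54).

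Granule proteins of the myeloblast differed gene by gene. Of 14, 7 were called lower and 4 higher (2 higher and 7 lower of 11 outside chromosomes 5, 6, 10 and 17). AZU1, which encodes azurocidin, was at 3941, 3806 and 3803 FPKM in B11, against 5287, 4999 and 4892 FPKM in THP1, a log2 difference of -0.39 (SE 0.05, adjusted p = 4.4e-05), while neutrophil elastase, ELANE, was at 2962, 2947 and 2938 FPKM in B11, against 1834, 1731 and 1759 FPKM in THP1, a difference of 0.73 (SE 0.06, adjusted p = 2e-07). The groups did not overlap for either gene, and these neighbours on chromosome 19 differed in opposite directions. SRGN, the granule proteoglycan serglycin on chromosome 10, was at 3186, 3452 and 3692 FPKM in B11, against 926, 999 and 838 FPKM in THP1, a difference of 1.90 (SE 0.08, adjusted p = 5.8e-10). MPO, myeloperoxidase, varied between plates in both lines and was not called, at 2.74, 1.51 and 9.86 FPKM in B11, against 6.35, 22.8 and 6.12 FPKM in THP1 (adjusted p = 0.097).

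Of 22 myeloid transcription factors, 12 were called lower and 6 higher. NFE2 was at 4.44, 4.58 and 3.71 FPKM in B11, against 28.6, 29.9 and 26.3 FPKM in THP1, a log2 difference of -2.48 (SE 0.09, adjusted p = 4.6e-11). CEBPE and CEBPA, drivers of granulocyte differentiation, were lower, at log2 differences of -1.30 and -0.44, and RUNX1 at -0.84. In the other direction, KLF2 was at 42.03, 48.5 and 34.2 FPKM in B11, against 4.27, 5.04 and 3.12 FPKM in THP1, a difference of 3.05 (SE 0.17, adjusted p = 4.4e-09). IRF8, required for monocyte development, was at 994, 981 and 1043 FPKM in B11, against 486, 471 and 459 FPKM in THP1, a difference of 1.09 (SE 0.04, adjusted p = 2.4e-10), and GATA2 was higher by 0.93 (log2). Of 15 genes of the HOXA and MEIS1 programme that MLL fusions such as that of THP1 maintain, 5 were higher and 3 lower (3 and 3 of 13 outside the 4 chromosomes), with HOXA9 at 0.38 and HOXA7 at -1.06.

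Antigen presentation genes of HLA class II differed in both directions, also between chains of the same isotype. HLA-DRA was at 1.23, 0.816 and 1.15 FPKM in B11, against 8.29, 11.9 and 9.96 FPKM in THP1, a log2 difference of -2.41 (SE 0.20, adjusted p = 3.1e-07), and HLA-DPA1 and HLA-DPB1 were lower, at log2 differences of -2.47 and -2.06. HLA-DRB1 and HLA-DQB1 were higher by 1.02 and 0.95 (log2). In all, 5 of 15 tested members were called lower and 3 higher, and outside the 4 chromosomes there were 1 and 0 of 5. HLA genes are polymorphic near-copies of each other, so the division of reads between the chains is uncertain.

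**Figure D2:**
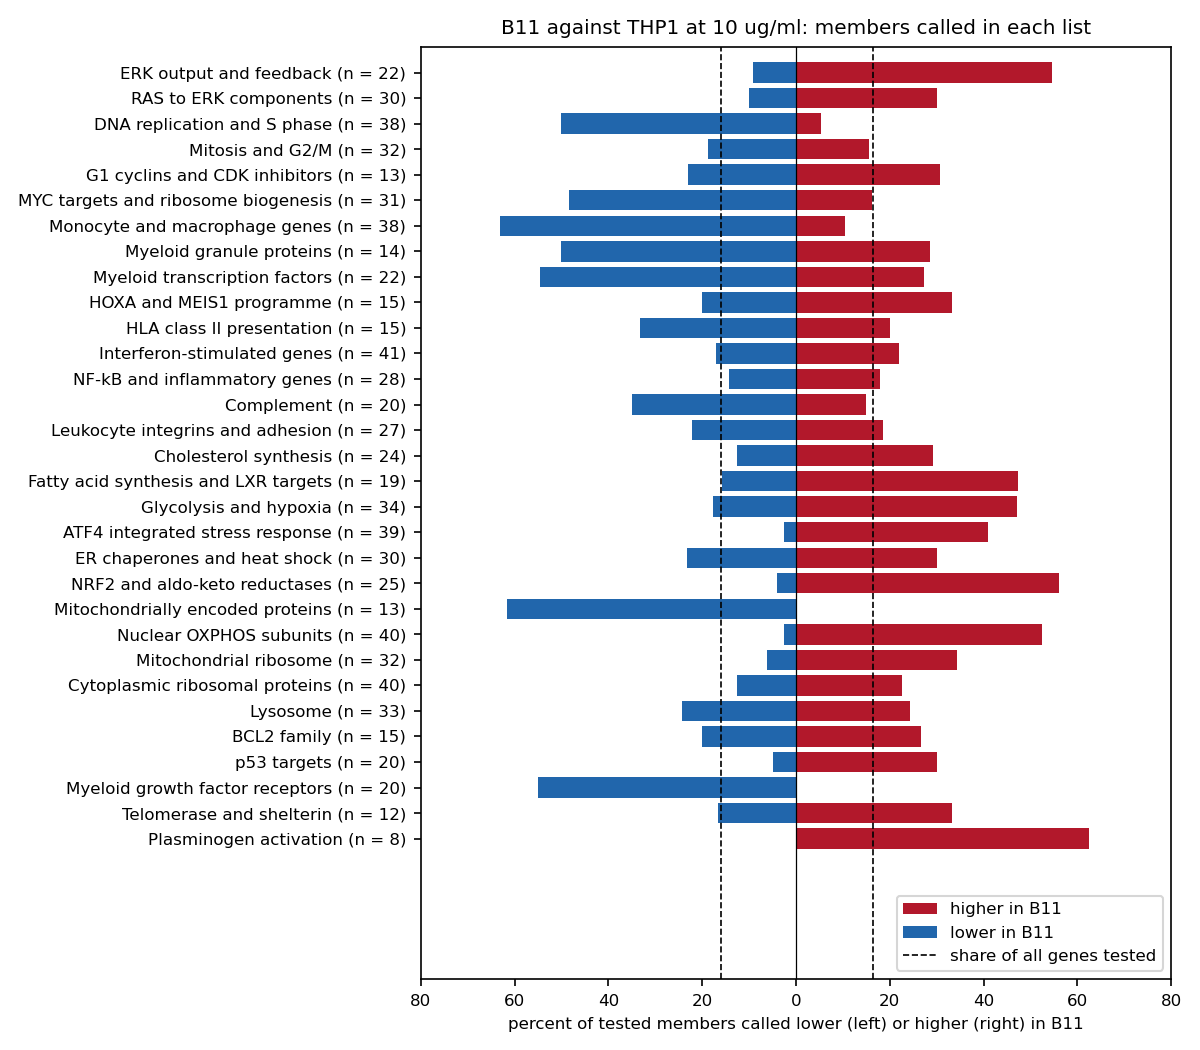
Percent of tested members called lower (blue, left) and higher (red, right) in B11 against THP1 at 10 ug/ml for 31 gene lists, with the number tested beside each name and dashed lines at the shares of all 17555 genes, 16% lower and 16.4% higher. Blue bars are longest for mitochondrially encoded proteins (8 of 13) and monocyte genes (24 of 38). Red bars are longest for plasminogen activation (5 of 8), NRF2 and aldo-keto reductase genes (14 of 25) and ERK output (12 of 22).

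Replication genes were lower in B11, and mitotic genes were divided. Of 38 genes of DNA replication and S phase, 19 were called lower and 2 higher, with a median log2 difference of -0.30 (1 higher and 19 lower of 33 outside chromosomes 5, 6, 10 and 17). MCM4, a subunit of the replicative helicase, was at 389, 463 and 449 FPKM in B11, against 766, 726 and 749 FPKM in THP1, a difference of -0.79 (SE 0.10, adjusted p = 2.8e-05). GINS2, part of the same helicase complex, was lower, at a log2 difference of -1.23, its partner CDC45 at -0.86 and the cyclin CCNE1 at -0.82. CDT1, which loads the helicase, went the other way, at 219, 198 and 194 FPKM in B11, against 102, 95.7 and 115 FPKM in THP1, a difference of 0.96 (SE 0.12, adjusted p = 2.9e-05).

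Of 32 genes of mitosis, 6 were called lower and 5 higher, and the members called higher, AURKB, KIF11, CDK1, PTTG1 and TTK, all lie on chromosomes 5, 6, 10 or 17. Outside these chromosomes 5 of 21 were lower and none was higher. AURKB, a kinase of the chromosomal passenger complex on chromosome 17, was at 115, 106 and 86.7 FPKM in B11, against 44.99, 39.9 and 34.98 FPKM in THP1, a log2 difference of 1.34 (SE 0.14, adjusted p = 5.2e-06). The S and G2 phase cyclin CCNA2 was not called, with 32.6 FPKM in B11 and 34.2 in THP1 on average. Among 13 G1 cyclins, kinases and inhibitors, 4 were higher and 3 lower. CDK4 and CDK6, the partners of D cyclins, were lower, at log2 differences of -0.81 and -0.85, and the inhibitor CDKN1A was higher by 0.76 (log2). MYC targets and genes of ribosome biogenesis were 15 lower and 5 higher of 31, or 15 and 1 of 24 outside the 4 chromosomes. Ornithine decarboxylase, ODC1, was lower, at a log2 difference of -0.96, and the nucleolar proteins NOP58 and NOP56 at -1.03 and -0.82.

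The aldo-keto reductases AKR1C1, AKR1C2 and AKR1C3, enzymes that reduce steroids and reactive carbonyls, were all higher in B11 and low in every THP1 library. AKR1C2 (chromosome 10, 4987400 to 5018031, minus strand) was at 621, 644 and 626 FPKM in B11, against 1.98, 3.85 and 0.964 FPKM in THP1, and the log2 difference was 7.69 (SE 0.28, adjusted p = 6.7e-11). AKR1C3 was at 60.4, 56.7 and 57.03 FPKM in B11, against 0.230, 1.48 and 0.122 FPKM in THP1, a difference of 5.29 (SE 0.39, adjusted p = 1.2e-07). AKR1C1 was at 32.8, 28.1 and 78.7 FPKM in B11, against 0.547, 0 and 0.468 FPKM in THP1, a difference of 5.02 (SE 0.30, adjusted p = 1.3e-08). The libraries of the lines did not overlap for any of these genes. They are close copies, and 43.2% of all 50-base windows of the AKR1C2 transcripts also occur in transcripts of AKR1C1, so the division of reads between them is uncertain.

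Their RefSeq promoters (GRCh38.p14, 250 bases before to 50 after the start) are shown because the 3 genes moved together. AKR1C1 and AKR1C2 were 98.6% identical over 292 aligned bases, and AKR1C3 was 80.9% identical to AKR1C1 and 79.7% to AKR1C2. Capitals mark AAGAAACATTTGC, the longest run that all 3 share, 13 bases, which was found by comparing them and occurs in 3 of 34943 promoters. The antioxidant response element TGACNNNGC, searched on both strands and held by 13.3% of promoters, has no match in these windows.
AKR1C1, chr10:4963165-4963464, plus strand: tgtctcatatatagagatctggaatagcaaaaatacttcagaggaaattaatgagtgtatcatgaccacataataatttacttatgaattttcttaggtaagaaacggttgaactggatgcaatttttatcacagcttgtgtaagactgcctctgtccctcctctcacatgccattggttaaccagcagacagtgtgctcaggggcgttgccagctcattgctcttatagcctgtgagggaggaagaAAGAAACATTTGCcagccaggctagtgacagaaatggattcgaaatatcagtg
AKR1C2, chr10:5003808-5004107, minus strand: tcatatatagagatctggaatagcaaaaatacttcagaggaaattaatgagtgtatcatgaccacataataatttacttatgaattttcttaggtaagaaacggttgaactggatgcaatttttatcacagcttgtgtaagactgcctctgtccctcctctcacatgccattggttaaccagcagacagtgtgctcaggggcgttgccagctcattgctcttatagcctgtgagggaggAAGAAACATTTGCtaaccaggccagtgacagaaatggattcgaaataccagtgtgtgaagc
AKR1C3, chr10:5048531-5048830, plus strand: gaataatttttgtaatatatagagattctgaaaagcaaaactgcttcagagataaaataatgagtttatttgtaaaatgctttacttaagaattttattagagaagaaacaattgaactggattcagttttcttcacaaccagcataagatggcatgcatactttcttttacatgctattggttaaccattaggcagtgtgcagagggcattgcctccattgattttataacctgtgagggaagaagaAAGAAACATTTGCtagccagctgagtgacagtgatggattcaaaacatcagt

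A list joined genes of the antioxidant factor NRF2 with aldo-keto reductases, AKR1C1, AKR1C2 and AKR1C3 included. Of 25 tested, 14 were higher and 1 lower. Outside chromosomes 5, 6, 10 and 17, which leaves these AKR1C genes out, 10 were higher and 1 lower of 20. The ferritin heavy chain FTH1 was at 855, 943 and 757 FPKM in B11, against 248, 278 and 273 FPKM in THP1, a log2 difference of 1.67 (SE 0.09, adjusted p = 3.7e-09). The quinone reductase NQO1 was higher by 1.16 (log2), and enzymes of the pentose phosphate pathway by 1.21 for TKT and 1.08 for PGD. Haem oxygenase HMOX1, with a difference of -0.05, and the cystine carrier SLC7A11, with 0.10, were not called. The gene of NRF2 itself, NFE2L2, was not called either (62.1 FPKM in B11 and 63.01 in THP1).

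Genes of glycolysis and hypoxia were higher more often than lower, 16 against 6 of 34 (9 higher and 5 lower of 24 outside chromosomes 5, 6, 10 and 17). ALDOC, an aldolase on chromosome 17, was at 136, 149 and 29.2 FPKM in B11, against 8.16, 9.40 and 7.88 FPKM in THP1, with 1 B11 library well below the others and above all THP1 libraries, and the log2 difference was 3.17 (SE 0.40, adjusted p = 2.4e-05). ALDOC overlaps AC005726.1 on the same strand. The glucose transporter SLC2A3 was higher by 1.90 (log2) and the enolase ENO2 by 1.95, while TXNIP and ARRDC4, arrestins that restrain glucose uptake, were lower, at log2 differences of -1.18 and -1.55. LDHA was not called, with a difference of 0.04. Of 39 genes of the ATF4 stress response, 16 were higher and 1 lower, with a median of 0.45. DDIT4, an inhibitor of mTORC1, was at 68.3, 90.3 and 56.2 FPKM in B11, against 16.3, 13.8 and 12.01 FPKM in THP1, a difference of 2.26 (SE 0.15, adjusted p = 3.5e-08), and asparagine synthetase, ASNS, was higher by 1.5 (log2). ATF4 was not called, with 457 FPKM in B11 and 385 in THP1 on average.

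Lipid synthesis genes differed in both directions. Of 24 genes of cholesterol synthesis, 7 were called higher and 3 lower (4 higher and 3 lower of 19 outside chromosomes 5, 6, 10 and 17). IDI1, an isomerase of the mevalonate pathway on chromosome 10, was at 59.6, 63.6 and 44.9 FPKM in B11, against 26.1, 18.2 and 19.5 FPKM in THP1, a log2 difference of 1.36 (SE 0.15, adjusted p = 5.5e-06), and squalene epoxidase, SQLE, was lower, at a log2 difference of -0.52. Among 19 genes of fatty acid synthesis and LXR targets, 9 were higher and 3 lower, and outside the 4 chromosomes the numbers were 3 and 3 of 11. Fatty acid synthase, FASN, on chromosome 17, was higher by 0.63 (log2). The cholesterol exporter ABCA1 and the apolipoprotein APOE were lower, at log2 differences of -2.08 and -2.0.

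Respiratory chain transcripts differed by the genome that encodes them. Of 13 mitochondrially encoded proteins, 8 were called lower and none higher, with a median log2 difference of -0.44. MT-ND5, a subunit of complex I, was at 519, 463 and 348 FPKM in B11, against 1065, 980.3 and 1150.4 FPKM in THP1, a difference of -1.28 (SE 0.14, adjusted p = 6.8e-06). The share of the FPKM sum held by these 13 genes was 3.42, 2.98 and 2.27% in B11, against 3.57, 3.21 and 4.09% in THP1, and the groups overlapped. Of 40 nuclear genes for respiratory chain and ATP synthase subunits, 21 were higher and 1 lower, with a median of 0.28 (16 higher and 1 lower of 33 outside chromosomes 5, 6, 10 and 17). ATP5F1C, on chromosome 10, and SDHA, on chromosome 5, were higher by 1.27 and 1.15 (log2), and NDUFS7 and UQCRC1 on other chromosomes by 0.79 and 0.54. Proteins of the mitochondrial ribosome were 11 higher and 2 lower of 32, and 4 and 2 of 24 outside the 4 chromosomes. Cytoplasmic ribosomal protein genes were 9 higher and 5 lower of 40, but outside the 4 chromosomes 2 and 5 of 31, and 17 of 40 were called lower in TPM.

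Interferon and inflammatory genes had no common direction at this dose. Of 41 interferon-stimulated genes, 9 were called higher and 7 lower. MX1, an antiviral GTPase, was at 1.39, 1.12 and 1.35 FPKM in B11, against 8.12, 17.6 and 9.47 FPKM in THP1, a log2 difference of -2.41 (SE 0.32, adjusted p = 4.3e-05), while ISG15 was higher by 0.39 (log2). Among 28 NF-kB and inflammatory genes, 5 were higher and 4 lower (1 higher and 2 lower of 19 outside chromosomes 5, 6, 10 and 17). CCL5, a T cell chemoattractant on chromosome 17, was at 405, 427 and 376 FPKM in B11, against 48.3, 48.02 and 50.1 FPKM in THP1, a difference of 3.02 (SE 0.08, adjusted p = 2.3e-12), and CCL2, a monocyte chemoattractant on the same chromosome, was lower, at a log2 difference of -2.37. The NF-kB subunit NFKB2 was higher by 1.80 (log2). Complement genes were 7 lower and 3 higher of 20, with C3 lower, at a log2 difference of -2.72, and properdin, CFP, at -1.55. C1QA, a chain of complement C1q, was listed at 0 in all 3 B11 libraries, against 6.003, 7.30 and 4.17 FPKM in THP1, so no fold is given.

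Adhesion genes differed in both directions. Of 27, 5 were called higher and 6 lower (2 higher and 6 lower of 20 outside chromosomes 5, 6, 10 and 17), near the shares over all genes. ITGAL, the alpha chain of the leukocyte integrin LFA-1, was at 42.1, 51.7 and 49.7 FPKM in B11, against 139.6, 179 and 159 FPKM in THP1, a log2 difference of -1.71 (SE 0.13, adjusted p = 1.4e-07), and its beta chain ITGB2 was lower, at a log2 difference of -0.32. ITGB1, on chromosome 10, was at 146, 155 and 148 FPKM in B11, against 52.02, 59.8 and 57.2 FPKM in THP1, a difference of 1.39 (SE 0.09, adjusted p = 4.1e-08), and ICAM2 and PECAM1, on chromosome 17, were higher by 1.92 and 1.40 (log2). In the plasminogen activation group, 5 of 8 were higher and none lower, with S100A10, which anchors plasminogen at the cell surface, at 112, 121 and 84.2 FPKM in B11, against 31.5, 28.9 and 29.2 FPKM in THP1 and a difference of 1.77 (SE 0.12, adjusted p = 3.5e-08). TERT, the catalytic subunit of telomerase on chromosome 5, was at 30.9, 31.9 and 26.9 FPKM in B11, against 4.0, 3.81 and 2.96 FPKM in THP1, a difference of 2.76 (SE 0.19, adjusted p = 6.4e-08), and 4 of 12 telomerase and shelterin genes were higher and 2 lower (1 higher and 2 lower of 9 outside chromosomes 5, 6, 10 and 17).

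The remaining groups were mixed, and signed values in this paragraph are log2 differences. Lysosomal genes were 8 higher and 8 lower of 33 (4 and 6 of 24 outside the 4 chromosomes), with the acid glucosidase GAA at 1.13 and cathepsin Z, CTSZ, at -1.80. Among 30 chaperones, 9 were higher and 7 lower (5 and 7 of 25 outside the 4 chromosomes), with calreticulin, CALR, at -0.73 and the heat shock protein HSP90AB1, on chromosome 6, at 0.72. Of 15 BCL2 family genes, 4 were higher and 3 lower, with MCL1 at 0.46 and BCL2 at -0.56. Of 20 p53 target genes, 6 were higher and 1 lower (3 and 1 of 16 outside the 4 chromosomes), with the death receptor TNFRSF10B at 1.37 and GADD45A at -1.38. Among other markers, 1 of 5 tested erythroid and megakaryocyte genes was higher (GP1BA, 0.91) and 2 were lower (the transferrin receptor TFRC at -1.14 and GP9 at -1.23), with 0 higher and 2 lower of 3 outside the 4 chromosomes. Of 5 epithelial and fibroblast genes, 2 were lower and none higher (1 lower of 2 outside the 4 chromosomes), where the list summed to 2.94 to 7.32 FPKM in B11 and 7.35 to 13.2 FPKM in THP1.

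Single genes, outside these groups apart from the lymphoid marker NCAM1, had some of the largest differences. NCAM1, an adhesion molecule of neurons and natural killer cells (chromosome 11, 112961247 to 113278436, plus strand), was at 199, 179.7 and 179 FPKM in B11, against 2.30, 1.15 and 0.368 FPKM in THP1, a log2 difference of 6.45 (SE 0.26, adjusted p = 2.7e-10). FCER2, the low-affinity IgE receptor, was at 44.8, 41.1 and 44.8 FPKM in B11, against 2.79, 2.91 and 1.86 FPKM in THP1, a difference of 3.68 (SE 0.19, adjusted p = 2.7e-09), and the Notch ligand DLL1 was at 40.1, 38.6 and 37.98 FPKM in B11, against 2.91, 2.47 and 4.51 FPKM in THP1, a difference of 3.24 (SE 0.17, adjusted p = 4.2e-09). Each of these was low in every THP1 library. PPP1R27, a regulatory subunit of protein phosphatase 1, was abundant in both lines, at 2228, 2193 and 2286 FPKM in B11, against 203, 190.5 and 199.7 FPKM in THP1, a difference of 3.49 (SE 0.08, adjusted p = 1.2e-12). The homeobox gene HMX3 was higher by 3.14 (log2), CXorf57 by 3.20 and CYSTM1 by 3.09. CYSTM1 overlaps PFDN1 and DLL1 overlaps FAM120B, both on the opposite strand. AP000781.2 was higher by 4.56 (log2), but it overlaps PRG2 and SLC43A3 on the same strand.

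Among genes lower in B11, SPP1, which encodes the secreted protein osteopontin, was at 1.46, 0.355 and 0.478 FPKM in B11, against 46.5, 77.8 and 51.5 FPKM in THP1, a log2 difference of -5.10 (SE 0.53, adjusted p = 3.6e-06). HSD11B1, which regenerates cortisol, was at 1.10, 0.524 and 0.771 FPKM in B11, against 45.2, 41.5 and 34.4 FPKM in THP1, a difference of -4.53 (SE 0.18, adjusted p = 2e-10). The gelatinase MMP9 was at 0.289, 0.166 and 0.723 FPKM in B11, against 16.7, 17.4 and 14.7 FPKM in THP1, a difference of -3.65 (SE 0.16, adjusted p = 5.8e-10). No library of 1 line overlapped the other for these genes. TMEM176B was listed at 0 in all 3 B11 libraries, against 16.8, 15.7 and 14.8 FPKM in THP1, so no fold is given. PLEKHO1 was lower, at a log2 difference of -4.34, the actin-binding leukocyte protein LSP1 at -4.14, the adhesion molecule CEACAM6 at -4.03, OLFML3 at -3.39, IGSF6 at -3.34 and MAGED1 at -3.32. LSP1, IGSF6 and TMEM176B overlap PRR33, METTL9 and TMEM176A on the opposite strand, and CEACAM6 overlaps AC243967.1 on the same strand.

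**Figure D3:**
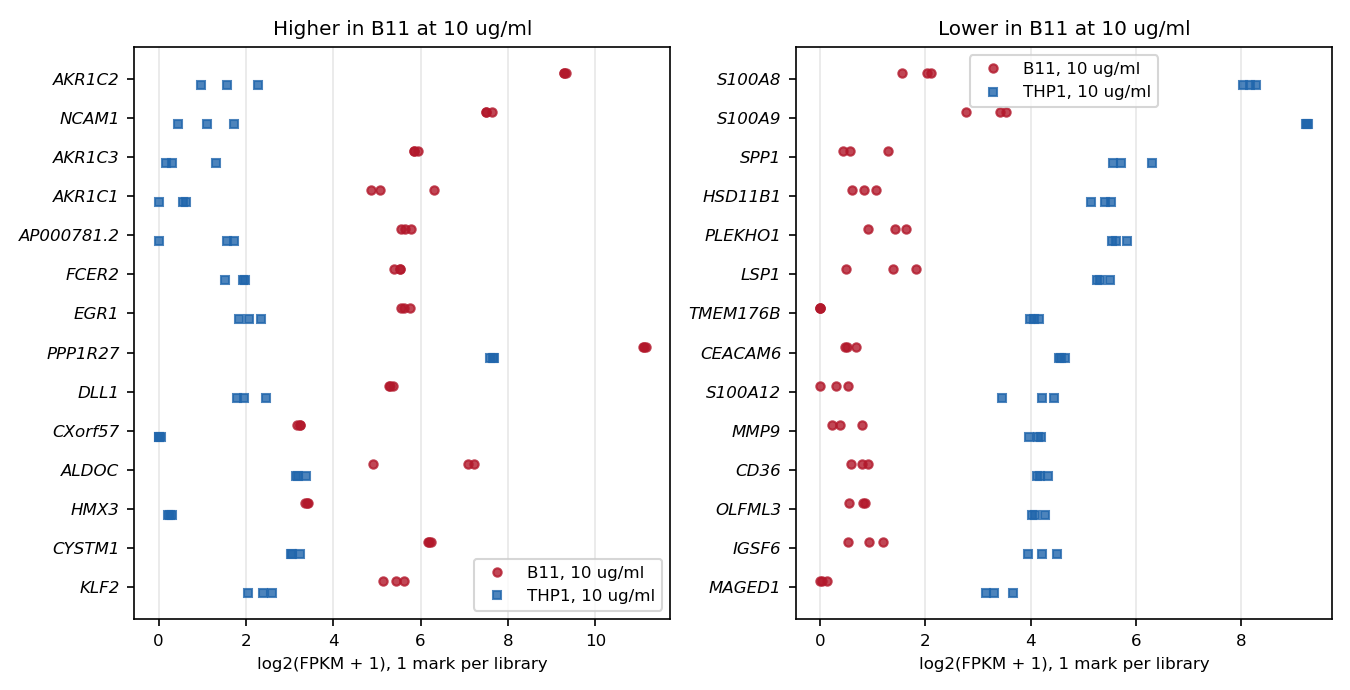
Values of each library on the log2(FPKM + 1) scale for the 14 genes with the largest differences in each direction, B11 as red circles and THP1 as blue squares, with 3 marks per line. For every gene shown the red and blue marks are separate, and ALDOC and AKR1C1 have 1 B11 library apart from the other B11 libraries.

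Whether these differences existed without doxycycline was asked with the 12 other libraries. At 0 ug/ml, 8269 genes were called between B11 and THP1 (47.1%; 4122 higher, 23.5%, and 4147 lower, 23.6%), and at 1 ug/ml 5231 (29.8%; 2639 higher, 15%, and 2592 lower, 14.8%). These comparisons share no library with that at 10 ug/ml, but each gene had 1 estimate of spread for all doses. Calls at different doses are therefore not independent. Of the 2882 genes higher in B11 at 10 ug/ml, 1532 were also called higher at 0 ug/ml, which is 53.2% of those at 10 and 37.2% of those at 0 ug/ml. Of the 2809 lower at 10 ug/ml, 1529 were also called lower at 0 ug/ml, 54.4% and 36.9% of each list. A further 403 genes higher at 10 ug/ml and 322 lower at 10 ug/ml were called in the opposite direction at 0 ug/ml.

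The change of the clone-parent difference between 10 and 0 ug/ml was called for 5230 genes (29.8%), 2812 of them upward (16%) and 2418 downward (13.8%). Of the 4147 genes lower in B11 at 0 ug/ml, 2108 were called upward by this test, and 1303 of these were not called between the lines at 10 ug/ml. The 2108 include genes that passed THP1, such as EGR1, at log2 differences of -1.38 at 0 and 3.55 at 10 ug/ml. Of the 4122 genes higher at 0 ug/ml, 1778 were called downward, and 1186 of these were not called between the lines at 10 ug/ml. A gene not called at 10 ug/ml may still differ there. Among genes called at 10 ug/ml, the change was called upward in 1045 of those higher and downward in 860 of those lower. The genes called at 0 or at 10 ug/ml were picked with libraries that the test of the change uses again. Such picking favours changes in the directions counted here, by an amount that was not tested. The sign of the change does not give the distance from THP1. AURKB crossed THP1, from a log2 difference of -2.46 at 0 to 1.34 at 10 ug/ml, and is counted in both sets.

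Proliferation and cholesterol genes lay higher relative to the parent at 10 than at 0 ug/ml. All 38 replication genes and all 32 mitotic genes were called lower in B11 at 0 ug/ml, with median log2 differences of -2.29 and -2.51, and in each of them the difference was called upward at 10 ug/ml. The medians were -0.32 and -0.17 at 1 ug/ml and -0.30 and -0.15 at 10 ug/ml. MCM4 was at 86.5 ± 16.5 FPKM in B11 and 774 ± 22.7 in THP1 at 0 ug/ml, and at 434 ± 39.3 and 747 ± 20.1 in the same order at 10 ug/ml (SD, n = 3 each). All 24 cholesterol genes moved up relative to the parent as well, with a median of -1.64 at 0 ug/ml, -0.73 at 1 ug/ml and 0.21 at 10 ug/ml. Such a move can come from either line. From 0 to 10 ug/ml the cholesterol gene MSMO1 rose in B11 from 5.75 to 32.5 FPKM and fell in THP1 from 48.1 to 26.3 FPKM. ERK output genes moved up in 20 of 22 and down in 1, with medians of -1.23, 0.11 and 0.67 at 0, 1 and 10 ug/ml, so that the group lay below THP1 without doxycycline and above it at the highest dose.

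Monocyte genes moved mostly downward relative to the parent. At 0 ug/ml, 14 of the 38 were called higher in B11 and 14 lower. CSF1R was among those that crossed, from a log2 difference of 1.26 at 0 to -1.78 at 10 ug/ml. Of 38, 21 moved down and 7 up between 0 and 10 ug/ml, and the median was -0.29 at 0 ug/ml, -0.36 at 1 ug/ml and -0.76 at 10 ug/ml. CD36 was at 31.9 ± 2.20 FPKM in B11 and 24.5 ± 5.28 in THP1 at 0 ug/ml, 10.3 ± 2.83 and 18.4 ± 4.70 at 1 ug/ml, and 0.704 ± 0.192 and 17.6 ± 1.39 at 10 ug/ml. Its interaction, the difference at 10 minus that at 0 ug/ml, was -3.84 (SE 0.28, adjusted p = 1e-07). Mitochondrially encoded genes moved down in 12 of 13, with medians of 0.45, 0.01 and -0.44 at 0, 1 and 10 ug/ml.

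**Figure D4:**
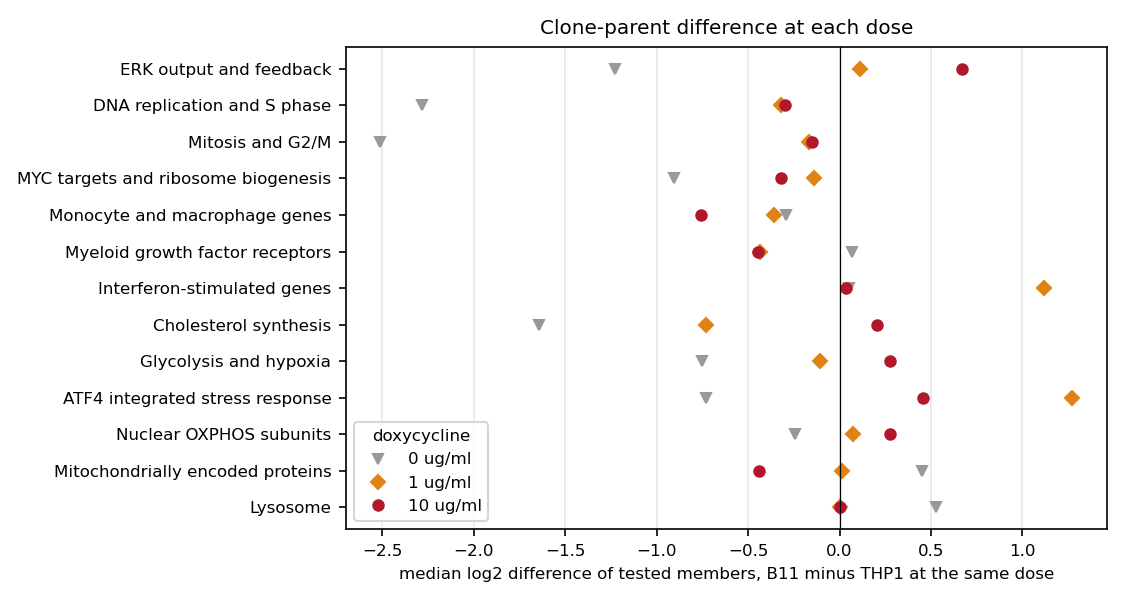
Median log2 difference of the tested members of 13 gene lists, B11 minus THP1 at the same dose, at 0, 1 and 10 ug/ml doxycycline. Replication and mitotic genes lie at -2.29 and -2.51 at 0 ug/ml and between -0.32 and -0.15 at the other doses, ERK output genes cross 0 with dose, and interferon-stimulated genes stand at 1.12 at 1 ug/ml.

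Among single genes, AKR1C2, EGR1 and ALDOC were not higher in B11 without doxycycline. ALDOC changed in both lines. It fell in THP1 from 35.3 ± 0.373 FPKM at 0 to 8.48 ± 0.810 at 10 ug/ml, and rose in B11 from 19.2 ± 0.894 to 105 ± 65.7. AKR1C2 was at 0.367 ± 0.348 FPKM in B11 and 0.919 ± 0.293 in THP1 at 0 ug/ml, with an interaction of 8.20 (SE 0.39, adjusted p = 1.7e-09), and EGR1 was at 1.34 ± 0.0543 and 5.09 ± 0.147, with an interaction of 4.94 (SE 0.16, adjusted p = 5.2e-11). NCAM1, in contrast, was at 154 ± 12.2 FPKM in B11 and 1.42 ± 0.485 in THP1 at 0 ug/ml, a log2 difference of 6.02, and SPP1 differed by -6.04 at 0 ug/ml, and neither interaction was called, at 0.44 (SE 0.37, adjusted p = 0.42) for NCAM1 and 0.94 (SE 0.75, adjusted p = 0.38) for SPP1. Between 1 and 10 ug/ml the difference changed in 814 genes (4.64%; 395 upward, 2.25%, and 419 downward, 2.39%), and in 502 without library C of B11 at 1 ug/ml. Interferon-stimulated genes were called downward in 25 of 41 and upward in none, with a median log2 difference of 1.12 at 1 ug/ml, and cholesterol genes were called upward in 19 of 24. ATF4 response genes were called downward in 16 of 39, with a median of 1.27 at 1 ug/ml.

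**Figure D5:**
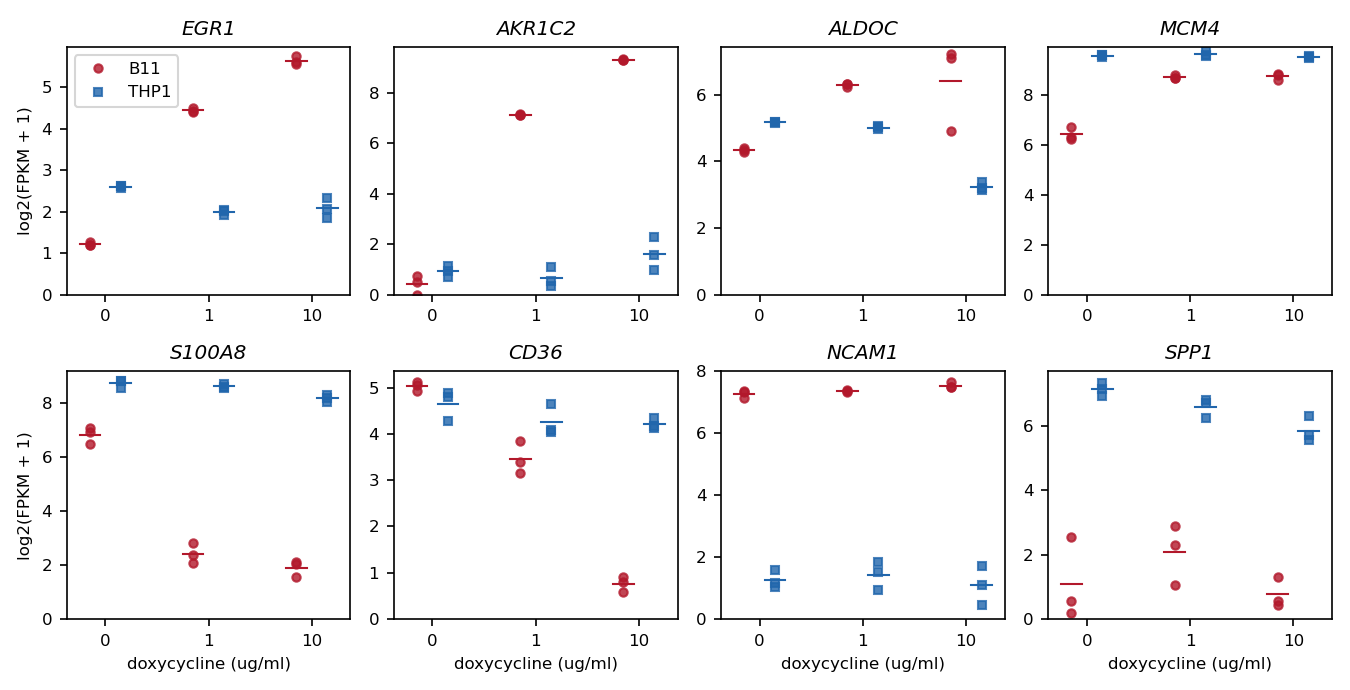
Values of each library on the log2(FPKM + 1) scale for 8 genes at 0, 1 and 10 ug/ml doxycycline, B11 as red circles left of THP1 as blue squares, with a line at the mean of 3 libraries. NCAM1 and SPP1 differ between the lines at every dose, while AKR1C2 and EGR1 are higher in B11 with doxycycline only, and CD36 is furthest below THP1 at 10 ug/ml.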

How the data were processed

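Total RNA of 18 plates was sequenced, 3 per line and dose. The authors deposited FPKM values for each gene and library. HISAT2, Cuffnorm and GRCh38 are named in the submitters' processing notes. For versions, annotation release and strandedness, nothing is given in the sources used here. FPKM was inferred from the tool and from the values, since the header names no unit. Gene names and coordinates came from GENCODE release 29, which named 57047 of 60658 IDs and all but 198 of the 17555 tested. Overlaps with other genes are given in the text for some of the genes that have them. No counts were used. Depth was estimated from the smallest values of 3056 single-transcript genes and did not enter the fit.

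The filter kept genes that reached 1 FPKM in 3 or more libraries. Values were taken as log2(FPKM + 1), which understates differences of low genes, and the means of 6 groups were fitted with limma (version 3.58.1, R 4.3.3) using a mean-variance trend, on 12 residual degrees of freedom. Genes were called at a Benjamini-Hochberg adjusted p under 0.05, over all genes of a comparison. Data were simulated for B11 against THP1 at 10 ug/ml, with 200 of 17555 genes changed, all with a mean above 5 FPKM. On these, limma recovered 35.8% of changes of 0.5 on the log2 scale, 82.1% of 1 and 98.5% of 2, and 5.88% of calls were false. Far more genes, 5691, were called in the data, so these rates do not carry over to that comparison or to genes of lower level. The members and the 34 gene lists were chosen with earlier results of these data known. Named genes were NRAS; the 14 called protein-coding genes with the largest difference in each direction, with a mean of at least 5 FPKM in the higher line and libraries that did not overlap; 8 and 4 in each direction for the change of the difference from 0 and from 1 to 10 ug/ml; and up to 4 called members per list by smallest p. Other genes named from a list were picked for their known roles after their values were seen. Alternatives were pseudocounts of 0.1 and 5, other filters, TPM or median-of-ratios scaling, no trend, robust moderation, a fit of only the compared groups, a block for the replicate letter, and leaving out each library. Gene lists without chromosomes 5, 6, 10 and 17, and chromosome medians over genes of at least 5 FPKM, were added after seeing the data. Figures were drawn with matplotlib 3.10.9.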

Additional observations from a re-analysis of the deposited data

Results flagged for a closer look

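The difference between B11 and THP1 depended on the dose. It changed between 0 and 10 ug/ml doxycycline in 5230 genes, by the limma test of the interaction. Upward changes on the log2 scale were 8.20 for AKR1C2, 5.49 for AKR1C1, 5.35 for RAB3IL1, 5.20 for AKR1C3, 4.94 for EGR1, 4.22 for MPP6, 4.08 for INAVA and 4.02 for ALDOC. RAB3IL1 and MPP6 varied widely between plates, MPP6 from 3.85 to 30.9 FPKM in B11 and from 3.88 to 16.6 in THP1 at 10 ug/ml, and neither was called between the lines at that dose. Downward changes were -4.40 for AC011511.4, -4.37 for S100A8, -3.98 for PTGDS, -3.84 for CD36, -3.81 for S100A9, -3.78 for GLIPR1, -3.73 for OLFML3 and -3.51 for CFP. AC011511.4 overlaps FDX2 and RAVER1 on the same strand, PTGDS overlaps AL807752.7 and ALDOC overlaps AC005726.1, also on the same strand. GLIPR1 overlaps KRR1 on the other strand.

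Between 1 and 10 ug/ml the difference changed in 814 genes. Upward changes were 2.23 for CACNB1, 2.04 for MSMO1, 1.96 for MACROD1 and 1.94 for AKR1C1, and downward changes were -6.56 for U2AF1, -3.82 for IFI27, -3.34 for G0S2 and -2.99 for OAS3. MACROD1 overlaps FLRT1 and OTUB1 on the other strand. U2AF1 varied between plates of the same group, at 0.392, 0.276 and 15.6 FPKM in B11 and 37.7, 10.5 and 13.2 in THP1 at 10 ug/ml, and lost its call in 9 alternatives. CACNB1 lost its call in 1 alternative, without library C of B11 at 1 ug/ml (adjusted p = 0.054 in limma), and AKR1C1 in 2, the pseudocount of 0.1 and the fit of only the groups compared.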

How the results depend on the processing

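The count of genes called between B11 and THP1 at 10 ug/ml was 5691 and ranged from 4779 to 5823 over the alternatives, within 1.5 times. It was 5823 in TPM, with 2487 higher and 3336 lower. It was 5778 under median-of-ratios scaling and 4779 to 5101 without each library in turn. With 1 library left out, counts were 4620 to 5025 for the change from 0 to 10 ug/ml, 502 to 740 for the change from 1 to 10 ug/ml, 4233 to 4476 at 1 ug/ml and 7350 to 7621 at 0 ug/ml. The count of 502 was reached without library C of B11 at 1 ug/ml, where the cause was not tested. The call of NRAS was lost with the median of ratios (log2 difference 0.17), in TPM (0.13), with no intensity trend, robust moderation, only the groups compared and the replicate block (0.20 in each), and without each library (0.181 to 0.207). Of the 155 other genes named by the rule and called at 10 ug/ml, 154 kept their call in every alternative, and PDGFRB lost it in 5. Most of these genes were picked by size or by smallest p, so a kept call was likely in advance. Genes named for their known roles, such as DUSP6 and FOS, were not followed through the alternatives. Among the named genes that were followed, no call reversed direction. Counts were compared by size only, and their balance could turn. At 10 ug/ml it went from 2882 higher and 2809 lower in FPKM to 2487 and 3336 in TPM. Cytoplasmic ribosomal protein genes went from 9 higher and 5 lower to 2 and 5 without chromosomes 5, 6, 10 and 17.

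Chromosome medians were 0.27 on chromosome 5 and 0.22 on chromosome 6 with the median of ratios. In TPM they were 0.23 on chromosome 5, 0.18 on chromosome 6, 0.52 on chromosome 10 and 0.33 on chromosome 17. By the rule of a median above 0.2, chromosome 6 would not have been picked in TPM. Over genes of at least 5 FPKM the medians were 0.42, 0.37, 0.78 and 0.54 on chromosomes 5, 6, 10 and 17. The replicate letters did not pair the samples: of 45 correlations between deviations of libraries with the same letter, none exceeded 0.1. With the letter as a block the replicate block gave 5562 genes at 10 ug/ml, and it changed no count by over 1.5 times.

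The variance between plates of 1 group was 3.44 to 9.96 times that estimated for counting noise alone.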
